A study of Mus musculus with 33 samples.

Results

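CCR2 and 3 of the CC chemokines that attract monocytes were followed in donor monocytes 1 day after their transfer into recipient mice. The genes were taken by name: Ccr2, Ccl2, Ccl7 and Ccl8, which are 4 of the 67 panel genes and 4 of the 57 that were measured in every library. Transcripts had been counted by nCounter, a hybridisation assay that reads each target as a barcode, in 33 libraries.

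All recipients were C57BL/6 CCR2-/- mice. Donors were on the C57BL/6 background, and the methods name wild-type or CX3CR1gfp/+ reporter mice as donors for such transfers. The labels state a wild-type donor only for SI cells of manipulated donors, so the donor genotype of the other libraries is not certain. Donor cells were told from recipient cells by congenic markers, and whether the disrupted recipient allele still gives a transcript that the probe reads was not tested. Manipulated recipients had surgery on the small intestine 1 day before transfer, under ketamine and xylazine, and then received Novalgin in the drinking water; they gave 5 libraries from small intestine (SI), 2 from liver and 3 each from spleen and bone marrow (BM). A further 4 libraries came from SI of non-manipulated recipients whose donors had been manipulated. Non-manipulated recipients of cells from non-manipulated donors gave 4 libraries from SI and 3 each from liver, spleen and BM. Monocytes before transfer, called primary here, gave 1 library from a manipulated donor and 2 from non-manipulated donors. No library came from sham-operated recipients, so in these libraries handling of the gut cannot be told apart from anaesthesia, incision or the drug. Cells recovered from SI had been sorted as CD11b+ CD11c lo/int CD64+ cells, a population the study also gates as negative for Ly6G and SiglecF. The text of the study does not give the sort gate for donor monocytes from liver, spleen and BM. Recovered cells were sorted at 100 per library, whereas primary monocytes were enriched with magnetic beads. Neither the number of primary monocytes per library nor the age of the mice is stated.

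CCR2 is the chemokine receptor through which classical, Ly6C-high monocytes leave the bone marrow and enter inflamed tissue. Its main ligand is CCL2, and CCL7 is a second strong agonist in the mouse. CCL8 is a close relative of both, which in the mouse acts mainly through CCR8. Monocytes and macrophages in inflamed tissue make these ligands themselves, so that the cells that respond to the signal can also be a source of it. On mouse chromosome 11 the RefSeq annotation orders the ligand genes as Ccl2, Ccl7, Ccl11, Ccl12 and Ccl8, while Ccr2 lies on chromosome 9. The probes covered 100 bases each, at positions 2966 to 3065 of NM_009915.2 for Ccr2, 416 to 515 of NM_011333.3 for Ccl2, 216 to 315 of NM_013654.2 for Ccl7 and 151 to 250 of NM_021443.2 for Ccl8.

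Total counts ranged from 653885 to 1626501 per library. Levels are given as counts normalised to Actb, Gapdh and Rpl19, or as log2 of the normalised count plus 1. Background, the mean plus 2 SD of 5 negative control probes, lay between 16.7 and 65.2 counts. Monocyte and macrophage transcripts such as Ly6c1, Csf1r, Cd14 and Fcgr1 (the gene of CD64) were above it in all 33 libraries. Of the listed markers of granulocytes, lymphoid cells, epithelium and stroma, 0 were on the panel, so such cells could not be checked by transcript. Libraries 3 and 4 of manipulated SI had the weakest positive control probes of the series (geometric means of 267 and 247 counts, against 386 to 729 in the other libraries). In these pooled cells, fewer expressing cells and less RNA per cell cannot be told apart.

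Surgery and Ccr2, the receptor, were compared first in the SI. Ccr2 was 4.73-fold lower in manipulated SI than in non-manipulated SI. The 5 libraries of manipulated SI had 21634, 6004, 47431, 42745 and 7788 normalised counts, against 82594, 137250, 71484 and 69061 in the 4 libraries of non-manipulated SI. The groups did not overlap, which was the case for 38.6% of the 57 genes, and libraries 2 and 5 of manipulated SI were the lowest of all 33. On the log2 scale the levels were 14.16 ± 1.37 (SD, n = 5) against 16.40 ± 0.46 (SD, n = 4), a difference of -2.24 ± 0.56 (SE; 95% confidence interval -3.40 to -1.08; limma, adjusted p = 0.0030). The drop was 8.62-fold without libraries 3 and 4 of manipulated SI, which were its highest for Ccr2 (log2 difference -3.11, adjusted p = 0.00014). With the deposited series matrix values the call was lost (-1.70, adjusted p = 0.070).

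Ccl2, the main ligand of CCR2, rose in the same cells. Manipulated SI had 22828, 21730, 31399, 33209 and 26500 normalised counts, against 4502, 3952, 3734 and 5128 in non-manipulated SI. Every library of manipulated SI lay above every other library of the series, and both groups were tight, at 14.71 ± 0.27 (SD, n = 5) against 12.07 ± 0.20 (SD, n = 4) on the log2 scale. The difference of 2.64 ± 0.66 (SE) corresponds to 6.23-fold (limma, adjusted p = 0.0030).

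Ccl7, the other CCR2 agonist, had the largest increase of the 57 genes in this comparison. Its normalised counts were 23598, 6258, 31004, 30511 and 13011 in manipulated SI, against 74.7, 116, 99.1 and 71.4 in non-manipulated SI. In non-manipulated SI the counts were only 1.80 to 2.85 times background, while in manipulated SI they were 269 to 594 times background. The log2 levels of 14.12 ± 0.99 (SD, n = 5) against 6.48 ± 0.33 (SD, n = 4) differ by 7.64 ± 1.35 (SE), or 199.6-fold (limma, adjusted p = 9.86e-05).

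Ccl8, from the same chromosomal cluster, did not pass the test. It had 138, 111, 150, 133 and 116 normalised counts in manipulated SI, against 140, 94.3, 123 and 101 in non-manipulated SI. The groups overlapped, and the difference of 0.18 had a 95% confidence interval of -0.38 to 0.74 (limma, adjusted p = 0.62). Thus 3 of the 4 genes passed the test in SI, where 33.3% of all 57 genes did; 2 rose, as did 19.3% of the genes, and 1 fell, as did 14%. Within lanes deposited without and with a constant multiplier, the SI differences were -3.22 and -1.49 for Ccr2, 2.40 and 2.79 for Ccl2, and 7.01 and 8.08 for Ccl7, each over 2 or 3 libraries against 2.

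**Figure D1:**
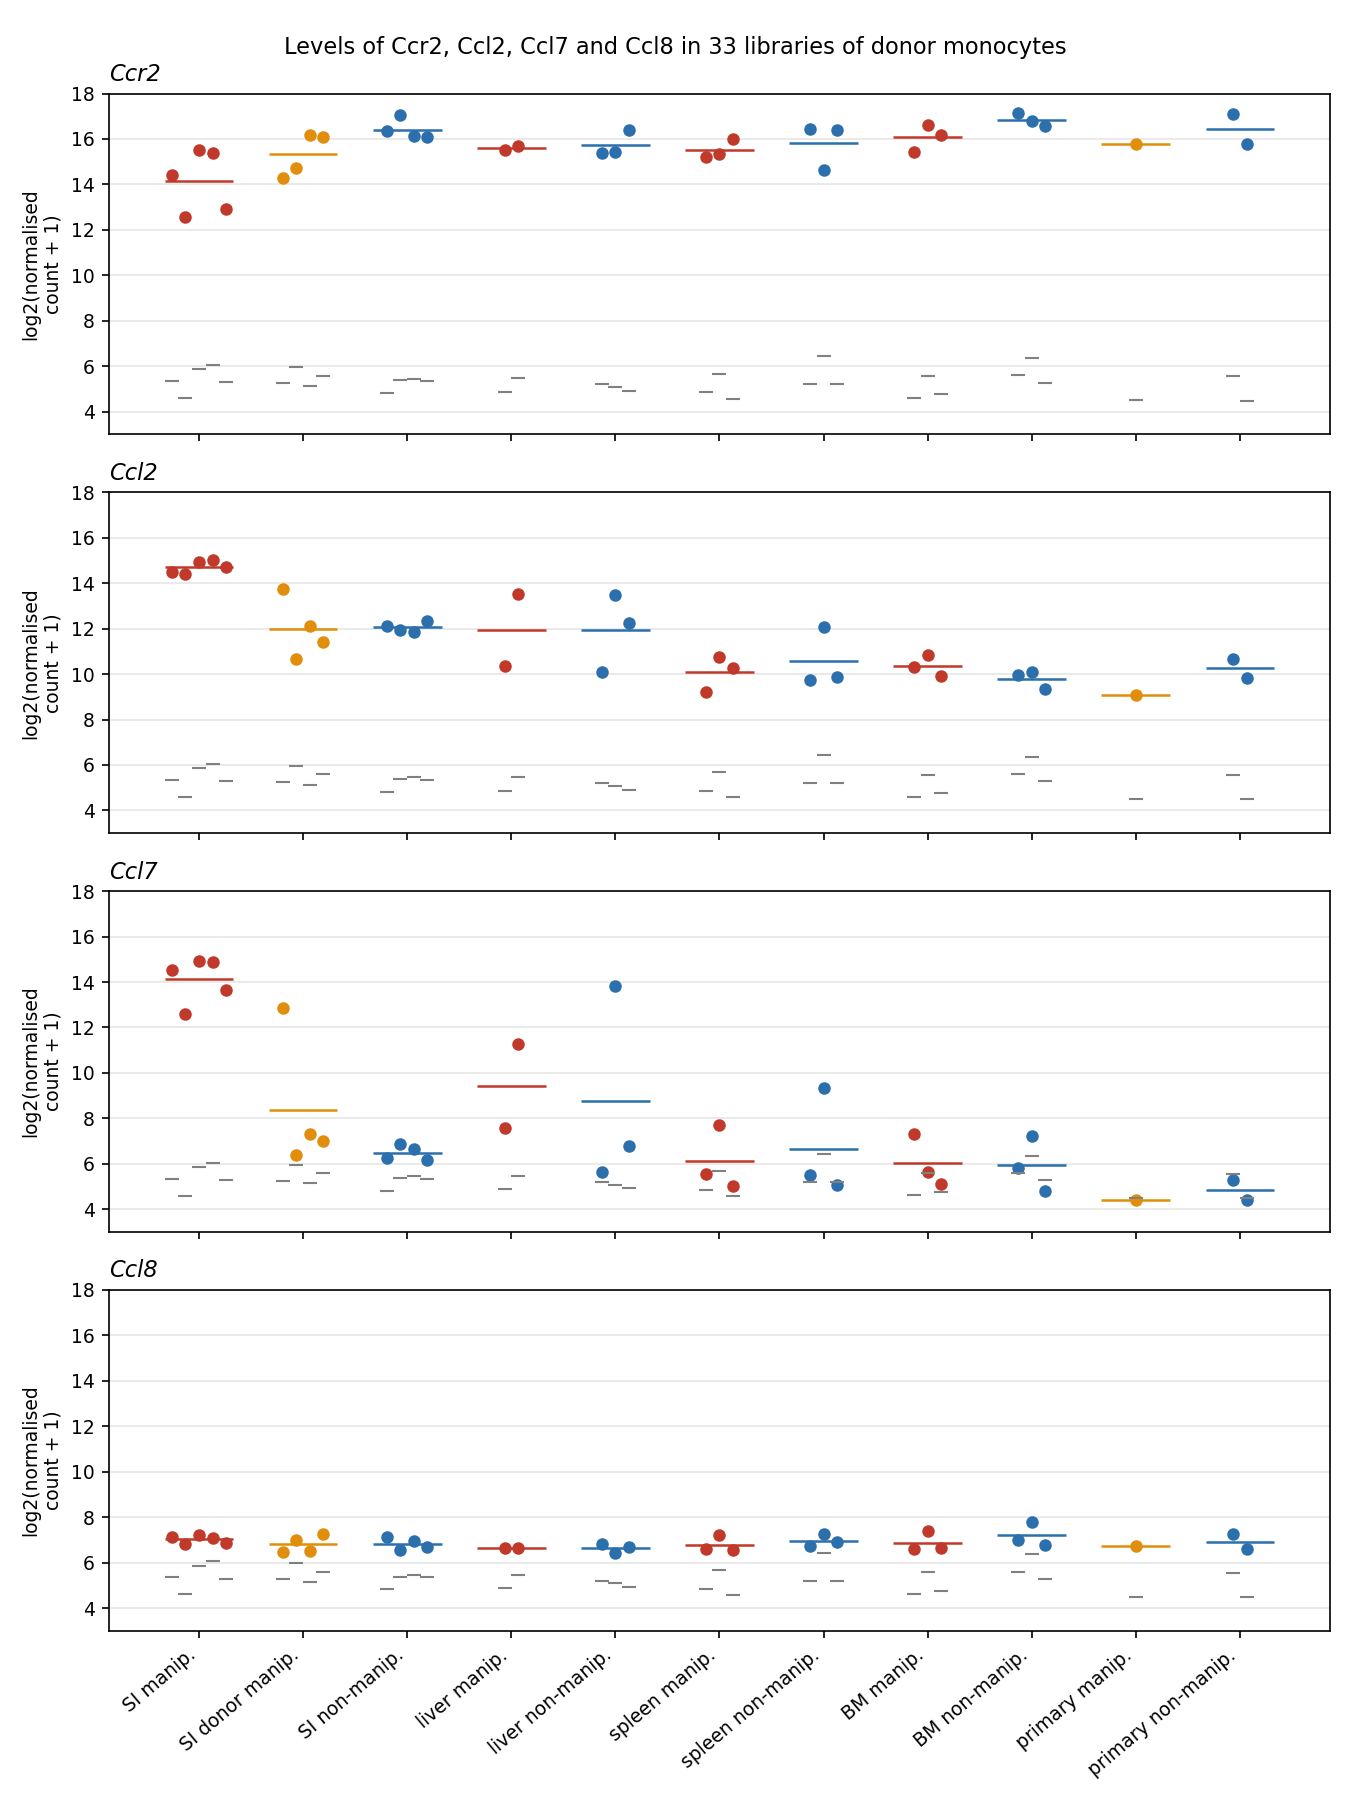
Log2 levels of Ccr2, Ccl2, Ccl7 and Ccl8 (vertical axes) in each of the 33 libraries, by tissue and treatment (red, manipulated recipients; orange, manipulated donors; blue, neither). Points are libraries, horizontal lines group means and grey dashes the background of each library on the same scale. Ccl2 of manipulated SI lies above all other libraries, Ccl7 spans background to 14.92, and Ccl8 stays between 6.42 and 7.80.

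The organs that were not operated on addressed whether donor monocytes elsewhere in the same kind of recipient changed too. None of the 4 genes passed the test in liver, spleen or BM, where 0%, 0% and 1.75% of the 57 genes did by limma (6, 6 and 8 genes at an unadjusted p below 0.05). None of the 4 reached an unadjusted p below 0.05 in these organs or was called by edgeR or DESeq2. The intervals were wide: for Ccl7 the log2 difference, manipulated minus non-manipulated, was 0.68 in liver (-3.11 to 4.46), -0.53 in spleen (-3.91 to 2.86) and 0.06 in BM (-3.32 to 3.45). For Ccl2 it was 0.00 in liver (-1.85 to 1.85), -0.50 in spleen (-2.15 to 1.16) and 0.55 in BM (-1.11 to 2.20). The liver value for Ccl2 was -1.58 without library 2 and 1.59 without library 1 of manipulated liver. For Ccr2 the differences were all below 0, at -0.14 in liver (-1.73 to 1.44), -0.29 in spleen (-1.71 to 1.12) and -0.77 in BM (-2.18 to 0.64). The median difference of the 57 genes was 0.06 in liver, -0.28 in spleen and -0.37 in BM. Over other settings the Ccr2 difference reached 0.23 in liver, 0.09 in spleen and -0.27 in BM.

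**Figure D2:**
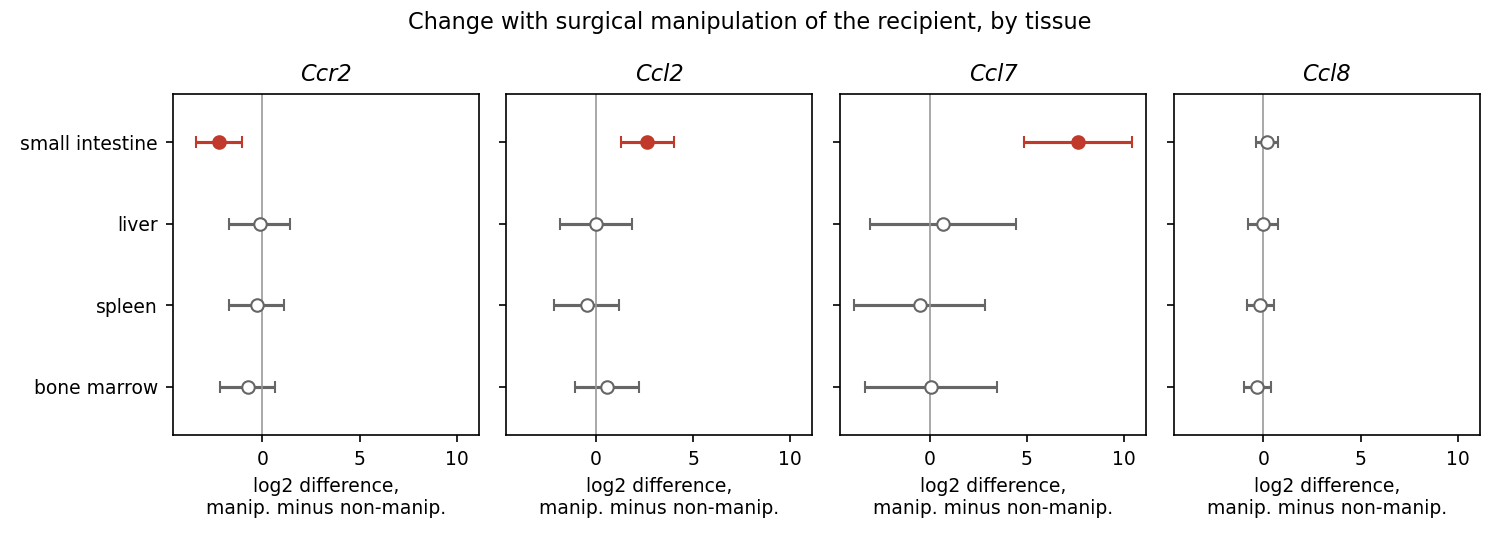
Log2 difference between manipulated and non-manipulated recipients (horizontal axes) with its 95% confidence interval, for each gene and tissue. Filled red points passed the test (adjusted p below 0.05) and open grey points did not; the 3 filled points are Ccr2, Ccl2 and Ccl7 in SI.

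The difference between SI and the other organs was tested directly, as the change in SI less the average of the changes in the 3 other organs. It was 7.57 ± 1.67 (SE) log2 units for Ccl7 (limma, adjusted p = 0.0018) and 2.62 ± 0.82 for Ccl2 (adjusted p = 0.026). These are 2 of 4 genes, against 14% of the 57, and both were higher, as were all 8 genes called. Ccr2 had the most negative value of the 57 genes, -1.84 ± 0.70, but did not pass (adjusted p = 0.091), and Ccl8 had 0.35 ± 0.34 (adjusted p = 0.77). The Ccl2 call ended when library 2 or 3 of non-manipulated SI, or library 1 of manipulated liver, was left out (2.58, 2.55 and 2.09; adjusted p = 0.053, 0.057 and 0.086), and also without both libraries 3 and 4 of manipulated SI (2.44) or with scaling to total counts (2.12). Ccr2 passed when library 3 or 4 of manipulated SI or both were left out (-2.18, -2.15 and -2.71), and with total count, TMM or DESeq2's own scaling (-2.35, -2.21 and -1.71).

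Single libraries of the other organs carried high ligand levels. Ccl7 in liver was 188 and 2482 normalised counts in the 2 libraries of manipulated recipients, against 48.5, 14476 and 109 in the 3 of non-manipulated recipients. Library 2 of non-manipulated liver thus lay within the range of manipulated SI, and it also had 11306 normalised counts of Ccl2, against 1098 and 4925 in the other libraries of its group. Library 2 was the highest of its group for Ccl7 in manipulated liver, manipulated spleen (210, against 46.2 and 31.7 in its other libraries), non-manipulated spleen (652, against 43.9 and 32.1) and non-manipulated BM (149, against 55.8 and 27.2). In manipulated BM it was library 1, with 158 normalised counts against 49.6 and 33.1. The Ccl7 difference in liver rested on single libraries, from -1.18 without library 2 of manipulated liver to 3.22 without library 2 of non-manipulated liver (adjusted p = 0.96 and 0.53), and edgeR and DESeq2 with house-keeping size factors both gave -1.87 without passing.

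Whether the state of the donor matters was addressed in SI of non-manipulated recipients. None of the 4 genes passed the test between cells from manipulated and from non-manipulated donors, as was the case for all 57 genes (0% by limma, 5 genes at an unadjusted p below 0.05). The libraries of both donor groups overlapped for each of the 4, whereas 7.02% of genes had no overlap. Ccl7 had 7472, 82.7, 157 and 126 normalised counts in cells of manipulated donors, against 74.7, 116, 99.1 and 71.4 in those of non-manipulated donors. The high value belongs to library 1, which also had the highest Ccl2 of its group (13789, against 1631, 4477 and 2711) and the lowest Ccr2 (19833, against 27332, 74011 and 70008). The log2 difference in Ccl7 was 1.91 ± 1.42 (SE; adjusted p = 0.71) with that library and 0.41 without it. DESeq2 called Ccl7 higher (4.44 with house-keeping size factors, adjusted p = 0.0060).

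Set against these cells of manipulated donors, recovered from a non-operated gut, cells in manipulated SI still had more of both CCR2 ligands. Ccl7 was 53.3-fold higher (log2 difference 5.74 ± 1.35, adjusted p = 0.0037) and Ccl2 6.58-fold higher (2.72 ± 0.66, adjusted p = 0.0041), whereas 8.77% of the 57 genes passed, all of them higher. The libraries did not overlap for Ccl2, as for 10.5% of genes, and overlapped for Ccl7 through library 1. With edgeR both calls were lost (3.41 and 2.26; adjusted p = 0.17 and 0.056), while by limma Ccl7 differed by 5.07 without library 2 of the manipulated donors (adjusted p = 0.028) and by 7.23 without their library 1 (adjusted p = 0.00012). Ccr2 was lower by 1.16 ± 0.56 log2 units and did not pass (adjusted p = 0.19), but it passed without libraries 3 and 4 of manipulated SI (-2.03, adjusted p = 0.014).

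Among non-manipulated tissues, the F test across SI, liver, spleen and BM passed for none of the 4 genes, against 8.77% of the 57. Ccl2 came closest (F = 4.05, adjusted p = 0.10) and was the 1 gene of the 4 with an unadjusted p below 0.05, against 16 of the 57. It passed without library 1 of non-manipulated liver or library 2 of non-manipulated spleen (adjusted p = 0.021 and 0.040). Of the 4, edgeR called Ccl7 instead (adjusted p = 0.0067), and it called 10 of the 57 genes. In pairs of tissues Ccl2 was 4.81-fold higher in SI than in BM by limma (2.27 ± 0.75, adjusted p = 0.047, where 12.3% of genes passed). It had 3734 to 5128 normalised counts in SI against 657 to 1087 in BM. Leaving out any 1 of these 7 libraries ended the call, with an adjusted p of 0.055 to 0.17, as did edgeR, the series matrix values and scaling without Actb or without Rpl19. Ccl2 was also 4.41-fold higher in liver than in BM without passing (2.14 ± 0.80, adjusted p = 0.062). Without library 1 of liver it did pass (3.06, adjusted p = 0.0090), and without library 2 of liver it was 1.38 (adjusted p = 0.37). SI and liver had been digested with collagenase, whereas spleen and BM had not, so tissue and digestion cannot be told apart here. Ccr2 was highest in BM, at 97781 to 144746 normalised counts, and differed from the other tissues by no more than 1.11 log2 units, none of which passed.

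Among non-manipulated tissues the mean level of Ccl7 was highest in liver (8.74 ± 4.44, SD, n = 3), against 6.48 in SI. In manipulated recipients the means of Ccl7 and Ccl2 were both highest in SI. The F test passed for Ccl7 (adjusted p = 7.73e-05) and Ccl2 (adjusted p = 1.37e-05), against 28.1% of the 57 genes, and not for Ccl8 (adjusted p = 0.91) or Ccr2 (adjusted p = 0.062). Ccr2 passed without library 3 or 4 of manipulated SI (adjusted p = 0.023 and 0.031). Ccl7 was 259.8-fold higher in SI than in spleen and 274.9-fold higher than in BM, and Ccl2 24.8-fold and 20.5-fold higher (all with adjusted p of 9.43e-05 or below; 31.6% and 35.1% of genes passed). Without library 2 of manipulated spleen the Ccl7 fold against spleen was 455.1, and without library 1 of manipulated BM that against BM was 430.4. Ccl7 counts were 1.39 to 4.20 times background in manipulated spleen and 1.06 to 6.77 times background in manipulated BM. The size of these Ccl7 folds therefore depends on counts near background. In manipulated recipients too, SI had been digested with collagenase and spleen and BM had not, so tissue and digestion cannot be told apart. Against liver, Ccl2 was 6.78-fold higher (adjusted p = 0.029; 8.77% of genes passed) and Ccl7 was higher by 4.70 log2 units without passing (adjusted p = 0.080). The Ccl2 call against liver was lost without library 3, 4 or 5 of manipulated SI (adjusted p = 0.054, 0.056 and 0.057) and without library 1 of manipulated liver (1.18, adjusted p = 0.63). Ccr2 was 3.76-fold lower in SI than in BM (-1.91 ± 0.61, adjusted p = 0.015), a call that ended without library 2 or 3 of manipulated BM (adjusted p = 0.091 and 0.052). Against spleen it missed the threshold (-1.37, adjusted p = 0.10) and passed without library 3 of manipulated SI (-1.71, adjusted p = 0.037).

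Recovered cells were also set against primary monocytes. Recovered cells had been sorted, and those of SI and liver digested with collagenase, whereas primary cells were flushed from marrow and enriched with beads. Changes between injection and recovery therefore cannot be told apart from cell preparation. Primary monocytes had much Ccr2, at 56130 normalised counts in the library of a manipulated donor and 141603 and 55410 in those of non-manipulated donors. They had little Ccl2 (544, against 1639 and 904), and their Ccl7 counts did not exceed background in any of the 3 libraries. With 1 library of a manipulated donor, donor state was not tested in primary cells. Against primary cells of non-manipulated donors, none of the 4 genes passed in non-manipulated SI, liver, spleen or BM, where 8.77%, 12.3%, 1.75% and 1.75% of the 57 genes did by limma. At an unadjusted p below 0.05 there was 1 of the 4 each in SI (Ccl2) and liver (Ccl7), against 16 and 17 of the 57 genes. In liver edgeR called 8 of the 57 genes, among them Ccl7 as higher (adjusted p = 0.047). By limma that difference was 3.91, and 1.37 without library 2 of non-manipulated liver (adjusted p = 0.15 and 0.66), and neither is a measured fold because the primary libraries were at background. Ccl2 in non-manipulated SI was 3.53-fold higher with no overlap of libraries (1.82 ± 0.85, adjusted p = 0.16), beside 42.1% of genes without overlap and 7.02% called higher. The median log2 difference of the 57 genes from primary cells was 1.00 in non-manipulated SI, 0.94 in liver, 0.42 in spleen and 0.37 in BM. It was 0.64 in manipulated SI. In manipulated SI 3 of the 4 passed, against 35.1% of the 57: Ccl2 was 21.97-fold higher (4.46 ± 0.82, adjusted p = 9.08e-05), and Ccl7 was at least 550-fold higher, with the primary libraries set at their background (adjusted p = 8.08e-05). Ccr2 was 4.84-fold lower (-2.28 ± 0.70, adjusted p = 0.011), as were 3.51% of genes, and 31.6% were higher. None of these 3 overlapped between the groups, as was so for 40.4% of genes. That call was lost without library 1 of the primary cells (-1.60, adjusted p = 0.19).

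Across the 11 groups, the mean levels could be ordered with few steps larger than the spread. Ccl2 was highest in manipulated SI, at 14.71, and lowest in the primary library of a manipulated donor, at 9.09. The step from manipulated SI to the next group, non-manipulated SI, was 2.64 against a larger SD of 0.27, and the next 3 steps, through SI of manipulated donors and manipulated liver to non-manipulated liver, were below 0.1. Only 2 of its 10 steps exceeded the larger SD of the neighbours, the other being the step down to the lone primary library at the lower end. For Ccl7 this was 1 of 10, between manipulated SI at 14.12 and manipulated liver at 9.42 ± 2.63 (SD, n = 2). For Ccr2 it was 0 of 10, between non-manipulated BM at 16.84 and manipulated SI at 14.16.

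Ccl8 varied little. Its log2 level had an SD of 0.32 over the 33 libraries, the smallest of the 57, whereas the SD was 3.43 for Ccl7, the second largest. Within groups the pooled SD of Ccl8 was 0.33, the second smallest. Before normalisation it had 65 to 178 counts, again with the smallest SD of the 57 (0.35 log2 units). These counts were 1.81 to 5.13 times background and above it in 33 of 33 libraries. Its group means differed by 0.56 log2 units at most, from 6.64 in manipulated liver to 7.20 in non-manipulated BM, and it passed in 0 of the 21 contrasts and neither F test by limma. DESeq2 with its own size factors, which scale the libraries differently, called it lower in 6 contrasts, by 0.64 to 1.05 log2 units. Whether so flat a signal so near background is transcript or probe background was not tested. Ccl7 was above background in 28 of 33 libraries, or 30 of 33 against the highest negative probe, and Ccr2 and Ccl2 were above it in all 33.

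The ratio of 2 genes within a library does not depend on the house-keeping scaling, although its size depends on probe and primer efficiency. The log2 ratio of Ccl7 to Ccl2 was -1.80 to 0.05 in manipulated SI, against -6.15 to -5.08 in non-manipulated SI. The ratio of Ccl2 to Ccr2 was -0.60 to 1.86 in manipulated SI, against -5.12 to -3.75 in non-manipulated SI. No library of any other group reached the Ccl2 to Ccr2 range of manipulated SI apart from library 1 of the manipulated donors, at -0.52. For Ccl7 to Ccl2, that library (-0.88) and library 2 of non-manipulated liver (0.36) did.

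**Figure D3:**
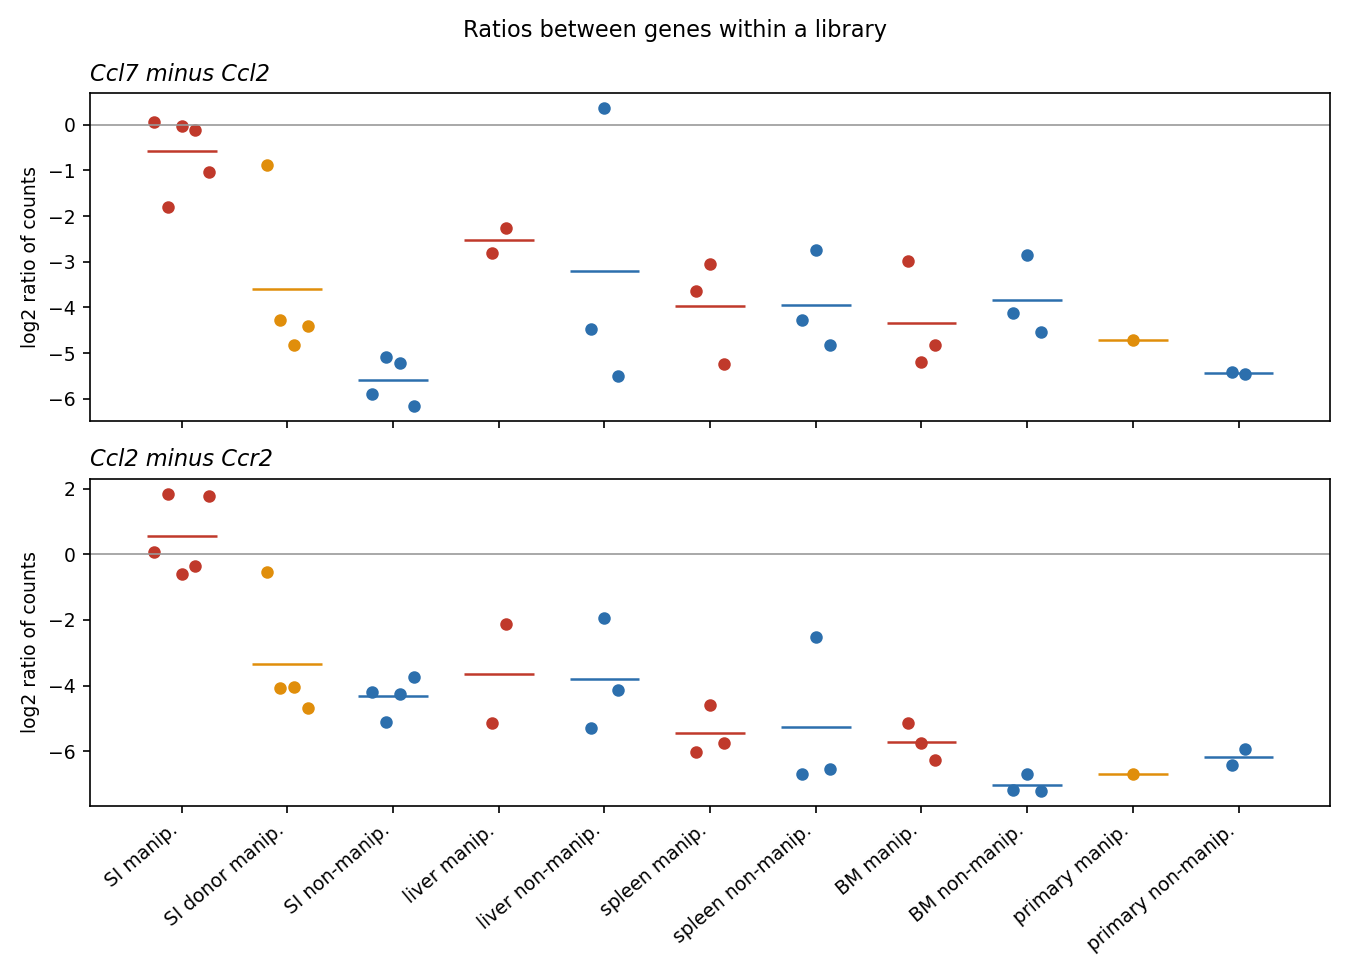
Log2 ratios of Ccl7 to Ccl2 (upper panel) and of Ccl2 to Ccr2 (lower panel) within each library, by group; points are libraries and horizontal lines group means, coloured as manipulated recipients (red), manipulated donors (orange) or neither (blue). Manipulated SI lies between -1.80 and 1.86 in both panels, and the Ccl7 values behind the primary ratios are below background.

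Ccr2 and Ccl7 were set against each other. Over the 11 group means the Pearson correlation of Ccr2 with Ccl7 was -0.81, the lowest that Ccr2 had with any gene, and over the 33 libraries it was -0.63. Within manipulated SI, libraries 2 and 5 had the lowest Ccl7 (6258 and 13011) and also the lowest Ccr2 (6004 and 7788), while libraries 3 and 4 had the highest of both. The log2 ratio of Ccl7 to Ccr2 lay between -0.61 and 0.74 in that group. Libraries 3 and 4 are those with weak positive controls, and the part of this in the pattern was not tested.

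**Figure D4:**
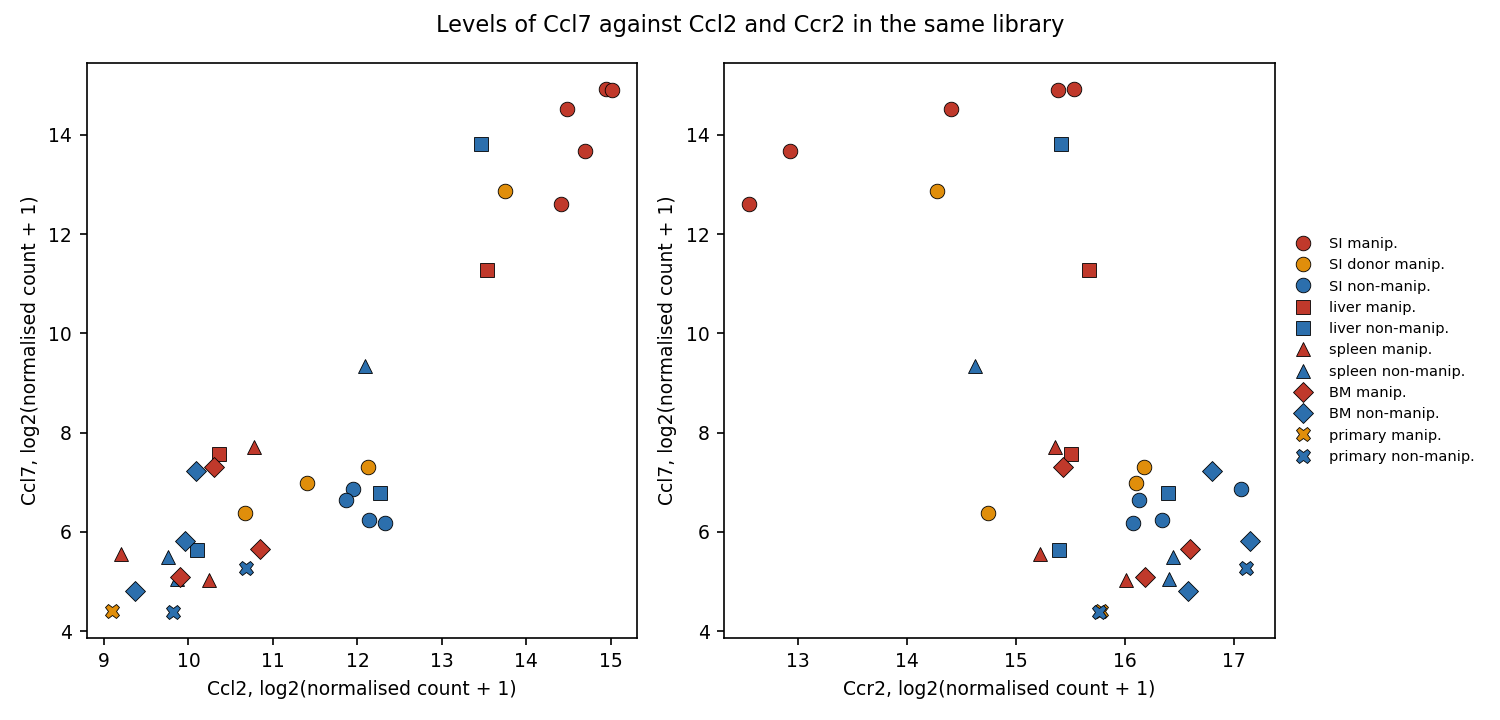
Ccl7 (vertical axes) against Ccl2 (left) and Ccr2 (right) in each of the 33 libraries, as log2 levels; symbols mark tissues and colours treatment. Ccl7 and Ccl2 are high together in manipulated SI, in library 1 of the manipulated donors and in library 2 of both liver groups. The 5 points of manipulated SI run upwards against Ccr2, whereas against Ccl2 they do not rise throughout.

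Of the other genes, the level of Il6, an inflammatory cytokine, was most like those of both ligands over the 11 group means (Pearson r = 0.96 with Ccl2 and 0.99 with Ccl7). For Ccl2 the next were Ccl7 (0.93) and Cxcl1 (0.92), and for Ccl7 they were Arg1 (0.94), which encodes arginase, and Ccl2 (0.93). Least like were Itgb7, a gut-homing integrin chain, for Ccl2 (-0.87) and Card9, an adaptor of innate signalling, for Ccl7 (-0.86). Ccr2 was most like Itgb7 (0.81), Card9 (0.77) and Trem2 (0.74), a lipid-sensing receptor of macrophages. Ccl8 reached no more than 0.67 with any gene (Nfkb1). Over the 33 libraries the order was another. There r was 0.91 for Ccl2 with Ccl7, against 0.87 and 0.89 for Il6 with Ccl2 and Ccl7. For Ccr2 it was 0.46 with Itgb7, 0.60 with Card9 and 0.52 with Trem2, and for Ccl8 0.38 with Nfkb1 and 0.58 with Fcgr1. These values describe 11 groups measured with 1 panel and 1 scaling, and whether the groups share recipients is not stated.

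The rest of the chemokine system on the panel comprised 8 measured genes, Ccl22, Ccr7, Ccr9, Cx3cr1, Cxcl1, Cxcl9, Cxcl10 and Cxcl11. In manipulated against non-manipulated SI, 1 of these rose, 2 fell and 5 did not pass, beside 19.3% of the 57 genes higher and 14% lower. Cxcl1, which attracts neutrophils, was 13.3-fold higher (3.73 ± 0.45, adjusted p = 8.23e-07). Cx3cr1, the fractalkine receptor of patrolling monocytes and gut macrophages, was 14.5-fold lower (-3.86 ± 0.91, adjusted p = 0.0020), as was Cxcl9, a ligand of CXCR3 (-3.86 ± 1.47, adjusted p = 0.044). The other CXCR3 ligands had -0.01 (Cxcl10) and -2.13 (Cxcl11) without passing. Whether any donors of these SI libraries were CX3CR1gfp/+ is not stated, which bears on the Cx3cr1 value. The median log2 difference of the 8 was -0.83, beside -0.01 over all 57 genes. In the contrast of SI with the other organs, Cxcl1 alone of the 8 passed (3.61 ± 0.56, adjusted p = 5.85e-05; 14% of the 57 did), as it did against SI of manipulated donors (3.03 ± 0.45, adjusted p = 3.07e-05; 8.77% did). By limma none of the 8 passed between manipulated and non-manipulated liver, spleen or BM, and none between donors. Cx3cr1 differed there by -2.23 in liver (adjusted p = 0.53), -3.52 in spleen (adjusted p = 0.11) and -3.18 in BM (adjusted p = 0.12). Manipulated SI also had more Cxcl1 than primary cells, 26.5-fold (adjusted p = 3.02e-07).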

How the data were processed

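The authors deposited barcode counts in 15 libraries. In the other 18 the deposited table holds a signal, made by multiplying the counts of a lane by a constant (1.33, 1.333, 2 or 4), in 5 of them for control probes too. Counts were recovered by dividing these lanes by their constant, after which 100% of the 1988 gene values over all 33 libraries lay within 0.002 of a whole number. The deposited series matrix holds a score, equal to the first table times a factor per lane. Per the methods of the study, cDNA was pre-amplified with gene-specific primers, so counts are not independent molecules.

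Counts were divided by a size factor from Actb, Gapdh and Rpl19. Log2(normalised count + 1) was fitted with limma 3.58.1 (lmFit and eBayes, two-sided tests; R 4.3.3) over 33 libraries in 11 groups, with Benjamini-Hochberg adjustment over 57 genes per contrast and a threshold of 0.05. P-values were not adjusted across the 21 contrasts and 2 F tests, many of which share libraries. All 57 genes exceeded background in at least 2 libraries, so the filter removed none. Alternatives were edgeR 4.0.16, DESeq2 1.42.0, other scalings, pseudocounts and backgrounds, blocks, fits of the compared groups alone, and leaving out libraries.

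Each library of a group is named after a different mouse, so the spread within groups includes that between mice. Nothing says whether same-numbered libraries of different tissues share a recipient, or whether those of different groups share a day. The main tests took all libraries as independent, which the labels do not settle and which the correlations below put in doubt for some groups. Over all genes, same-numbered libraries deviated together between manipulated and non-manipulated recipients in spleen (r of 0.41 to 0.59 over 3 pairs) and BM (0.53 to 0.61), and between non-manipulated liver and spleen (0.17 to 0.71) and spleen and BM (0.44 to 0.77). In SI they did not (-0.32 to 0.21 over 4 pairs).

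The 4 genes and all gene lists were chosen with earlier results of these data known. Named genes were the 4, the chemokine genes of the panel, and for each of the 4 the 3 most and 1 least alike by Pearson correlation over group means. Gene names were matched to RefSeq by transcript for 69 names and by symbol for 3. Of 4 listed dendritic cell markers the panel measured 1 (Ccr7), which was above background in 33 libraries.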

Additional observations from a re-analysis of the deposited data

Results flagged for a closer look

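Ccl7 in SI of non-manipulated recipients with manipulated donors had a library far above the others of its group: library 1 lay at a log2 level of 12.87, and the gap to the next library was 0.858 of the group's range. It was the only such library among 12 combinations of 4 genes with groups of 4 or more libraries, of which chance marks about 1 in 20.

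The change with manipulation differed between SI and the mean of liver, spleen and BM for Ccl7, by 7.57 log2 units (limma, adjusted p = 0.0018), and for Ccl2, by 2.62 (adjusted p = 0.026).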

How the results depend on the processing

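Refits gave 2208 values for 92 pairs of gene and comparison. Call and direction were kept in 1971, 146 turned the sign of a difference called in neither fit, 37 ended a call, 52 made one and 2 turned the sign of an uncalled difference and called it. The 1971 include differences called in neither fit. They also include the refits without the low-count filter, which repeat the main fit because that filter removed no gene. For manipulated against non-manipulated SI, the calls of Ccl2 and Ccl7 held in every refit (2.42 to 3.18 and 7.12 to 8.17 over 16 settings), and that of Ccr2 in all but the series matrix values. The values below are log2 differences of the group named first.

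With series matrix values, calls were lost for Ccr2 in manipulated SI against non-manipulated SI (-1.70), primary cells (-2.03) and BM (-1.87), and for Ccl2 in manipulated SI against liver (2.31) and non-manipulated SI against BM (1.91). Total counts ended the Ccl2 calls in SI against the other organs' change (2.12) and in manipulated SI against liver (2.42), and made calls for Ccl2 in non-manipulated liver against BM (2.45) and for Ccr2 in the contrast of changes (-2.35) and manipulated SI against spleen (-1.91), and in the F tests for Ccl2 over non-manipulated tissues (F = 5.34) and Ccr2 over manipulated tissues (F = 5.86). TMM factors made these Ccr2 calls (-2.21, -2.02 and F = 7.11), and the first 2 of them were also made by DESeq2 with its own size factors (-1.71 in each). Without Actb or without Rpl19, Ccl2 in non-manipulated SI against BM was no longer called (2.24 and 2.28).

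Fitting only the compared groups ended the Ccr2 calls of manipulated SI against BM (-1.91) and primary cells (-2.28) and the Ccl2 call against liver (2.76), and made calls for Ccl7 against liver (4.70) and for Ccl2 in non-manipulated SI against primary cells (1.82). The lane multiplier as a block made a call for Ccl2 in non-manipulated liver against BM (2.31). The replicate block, which pairs libraries of the same number, ended the Ccl2 call in non-manipulated SI against BM (2.27, adjusted p = 0.064) and changed no other call of the 4 genes.

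edgeR ended calls in manipulated SI against SI of manipulated donors for Ccl2 (2.26) and Ccl7 (3.41), against liver for Ccl2 (2.05) and in non-manipulated SI against BM for Ccl2 (2.25). It made calls in non-manipulated liver against BM for Ccl2 (2.66) and Ccl7 (5.98) and against primary cells for Ccl7 (7.40), and in the F test over non-manipulated tissues for Ccl7 (F = 7.33). DESeq2 with house-keeping and with its own size factors called Ccl7 in cells of manipulated donors (4.44 and 4.54), manipulated SI against liver (3.97 and 3.88), non-manipulated SI against liver (-5.76 and -5.95), and non-manipulated liver against BM (5.98 and 5.83), primary cells (7.41 and 6.72) and spleen (4.33 and 4.45), and Ccl2 in non-manipulated liver against BM (2.66 and 2.43). With house-keeping factors it also called Ccl2 in non-manipulated liver against primary cells (2.18). With its own factors it called Ccl8 lower in manipulated SI against BM (-0.64) and primary cells (-0.79), where the difference by limma was above 0, in non-manipulated SI against BM (-0.80) and primary cells (-0.99) and in non-manipulated liver against BM (-0.86) and primary cells (-1.05).

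Chosen after seeing the data, leaving out libraries 3 and 4 of manipulated SI ended the Ccl2 calls in the contrast of changes (2.44) and against liver (2.58) and called Ccr2 in the contrast of changes (-2.71) and against SI of manipulated donors (-2.03), liver (-2.29) and spleen (-2.24) and in the F test over manipulated tissues (F = 8.77). Leaving out the libraries numbered 2 of liver, spleen and BM called Ccl2 in non-manipulated SI against spleen (2.26) and Ccl7 in manipulated SI against liver (6.56), and Ccl2 in the F test over non-manipulated tissues (F = 6.55), and ended the Ccr2 call against BM (-1.65). The cause was not tested in any of these. Differences in Ccl7 against primary cells, which were at background, are not measured folds.

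Leaving out each library in turn changed a call for Ccr2 in the contrast of changes (-2.18 to -1.44) and in manipulated SI against primary cells (-2.95 to -1.60), spleen (-1.71 to -0.97) and BM (-2.25 to -1.51), and for Ccl2 in the contrast of changes (2.09 to 3.15), manipulated SI against liver (1.18 to 4.35), and non-manipulated SI (2.05 to 2.41) and liver (1.38 to 3.06) against BM, and in the F tests for Ccl2 over non-manipulated tissues (F of 2.84 to 6.55) and Ccr2 over manipulated tissues (F of 2.38 to 5.47).

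The number of genes called over all refits, with the limma count in parentheses, was 0 to 10 in BM with manipulation (1), 0 to 4 in spleen and between donors (0 in each), 0 to 2 in liver (0), and 2 to 11 for manipulated SI against SI of manipulated donors (5), 2 to 10 against liver (5), 13 to 28 against BM (20) and 17 to 31 against primary cells (20). Against primary cells it was 3 to 13 in non-manipulated SI (5), 4 to 17 in liver (7), 1 to 7 in spleen (1) and 1 to 5 in BM (1). Between non-manipulated tissues it was 0 to 2 for SI against liver (0), 2 to 4 against spleen (4) and 4 to 10 against BM (7), 3 to 9 for liver against spleen (4), 5 to 16 against BM (9) and 0 to 1 for spleen against BM (0), and 4 to 10 in their F test (5). Scaling moved the median difference of all genes in SI from -0.01 to 0.52 with series matrix values, 0.24 without Rpl19, 0.13 with DESeq2's size factors, -0.13 with TMM, -0.23 without Actb and -0.23 with total counts. Groups of 1 to 5 libraries limit every comparison, and counts near background limit those of Ccl8 and low Ccl7.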
